A study of Homo sapiens with 6 samples.

Results

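PAX6, IRX4, HOXD13 and HOTAIRM1 are genes of tissues other than the T lineage whose transcripts were nevertheless listed in MOLT-4, a human cell line of acute lymphoblastic leukemia of T cells (T-ALL). They were chosen by name, with their difference between the 2 groups already known, and make up 4 of the 60640 gene identifiers in the tables. PAX6, IRX4 and HOXD13 are homeobox genes. HOTAIRM1 encodes no protein: it is a noncoding RNA transcribed inside the HOXA cluster of homeobox genes, so the name "homeobox gene" covers it only by its position. PolyA RNA was measured in 3 libraries of wild type cells, which the labels call the control of the CRISPR knockout, and in 3 libraries that carry the label IK-KO, whose cells had CRISPR-Cas directed at IKZF1, the gene of IKAROS. Both groups grew in RPMI1640 medium with serum, with no other agent named. The study bought both the edited and the control cells. It reports PCR and western blot as checks of the knockout, and the blot shown covered a pair of clones beside wild type cells. The labels name no clone and do not say whether replicates were separate cultures, so p-values measure the spread between these libraries alone, and features of a single clone cannot be told apart from effects of IKAROS loss.

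Homeobox genes encode transcription factors that bind DNA through a homeodomain and set the identity of body regions and organs during development. Many are held silent outside their own tissue by Polycomb complexes, which place the repressive mark H3K27me3. In T-ALL some of them, among them TLX1, TLX3, NKX2-1 and genes of the HOXA cluster, are known as oncogenes when rearranged or expressed out of place. IKAROS is a zinc finger protein of lymphocytes that binds DNA around the core GGGAA and recruits chromatin complexes. PAX6 joins a paired domain to a homeodomain and is known for the eye, the forebrain and the pancreatic islets. IRX4, of the Iroquois family, is known for the ventricle of the heart. HOXD13, the last gene at the 5′ end of the HOXD cluster, patterns the digits and the urogenital tract. HOTAIRM1 lies next to HOXA2 and is known from myeloid differentiation.

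The tables place PAX6 (ENSG00000007372.23) on the minus strand of chromosome 11, at bases 31784779 to 31817961 of GRCh38, and the annotation gives it 81 transcripts over 20639 exon bases. IRX4 (ENSG00000113430.10) lies on chromosome 5, minus strand, between bases 1877413 and 1887236, with 8 transcripts over 2974 exon bases. HOXD13 (ENSG00000128714.6) lies on chromosome 2, plus strand, between 176092721 and 176095944, with 1 transcript of 2416 exon bases. HOTAIRM1 (ENSG00000233429.9) lies on chromosome 7, plus strand, between 27095647 and 27100265, with 6 transcripts over 1496 exon bases.

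IRX1, an Iroquois gene, lies in the same chromosome 5 cluster as IRX4. Which start site these cells use is not known, because levels are listed per gene. The 250 bases before an annotated start of IRX1 and of the 3 protein-coding genes are printed here. They come from RefSeq on GRCh38.p14 and read 5′ to 3′ toward the gene. Capitals mark the IKAROS core GGGAA or its reverse complement TTCCC. PAX6 has 9 such windows and IRX4 has 3. The ones shown are at the 5′ end of the table row for PAX6, HOXD13 and IRX1, and 57 bases inside it for IRX4.
PAX6 promoter, chr11:31817962-31818211, minus strand: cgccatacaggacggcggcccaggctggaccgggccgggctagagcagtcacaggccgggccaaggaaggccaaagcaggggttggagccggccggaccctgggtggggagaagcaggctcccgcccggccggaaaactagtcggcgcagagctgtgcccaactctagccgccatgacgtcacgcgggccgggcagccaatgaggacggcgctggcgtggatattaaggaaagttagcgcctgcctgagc
IRX4 promoter, chr5:1887180-1887429, minus strand: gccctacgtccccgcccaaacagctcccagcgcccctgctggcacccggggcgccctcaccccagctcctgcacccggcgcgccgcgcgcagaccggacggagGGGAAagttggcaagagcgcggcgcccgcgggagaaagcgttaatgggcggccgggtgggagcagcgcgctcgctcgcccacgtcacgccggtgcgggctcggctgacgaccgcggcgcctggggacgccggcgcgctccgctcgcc
HOXD13 promoter, chr2:176092471-176092720, plus strand: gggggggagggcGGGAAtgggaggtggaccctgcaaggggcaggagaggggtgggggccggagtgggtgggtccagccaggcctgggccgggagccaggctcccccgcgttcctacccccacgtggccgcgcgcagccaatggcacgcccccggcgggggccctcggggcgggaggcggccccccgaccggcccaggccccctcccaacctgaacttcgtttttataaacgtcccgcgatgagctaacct
IRX1 promoter, chr5:3595582-3595831, plus strand: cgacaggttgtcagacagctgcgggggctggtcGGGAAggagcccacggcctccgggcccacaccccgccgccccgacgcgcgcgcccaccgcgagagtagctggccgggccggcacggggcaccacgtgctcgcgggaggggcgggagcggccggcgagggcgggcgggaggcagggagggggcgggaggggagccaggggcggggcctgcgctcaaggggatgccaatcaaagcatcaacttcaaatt

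The core GGGAA was found 147 bases before the start of IRX4, 238 before that of HOXD13 and 217 before that of IRX1. The PAX6 window printed holds no match, whereas 5 of the 9 PAX6 windows do. Of the 3 IRX4 windows, only the 1 printed holds a match. This motif is common: on both strands together it was found in 59.0% of 35116 promoter windows of the same length. HOXD13 has TATAAA 27 bases before its start, a match that overlaps the reverse complement TTTATA at 29 bases. TATAAA or TTTATA was found in 10.7% of all windows. CCAAT or ATTGG, found in 32.0% of all windows, lies 54 bases before PAX6, 114 before HOXD13 and 25 before IRX1. The windows printed hold more CpG than the median window. Polycomb complexes are known to bind some promoters rich in CpG, but their binding at these genes was not tested. IRX4 has 40 CpG, more than 97.8% of all windows, PAX6 has 22, more than 72.0%, and HOXD13 has 21, more than 69.8%. The median over all windows was 11.

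Levels are given in FPKM (fragments per kilobase of transcript, scaled to the depth of the library), a unit that allows for gene length, so that genes can be compared with each other. Each value comes with the lower and upper confidence bound that the tables list. The tables hold no counts, so the number of fragments behind a value is not known. Between 12446 and 12692 genes reached 1 FPKM in a library, and the summed FPKM ran from 699352 to 738051. IKZF1 itself stood at 134, 124 and 105 FPKM in wild type against 207, 260 and 207 in IK-KO. Its RNA rose in the IK-KO group (0.89 ± 0.12 SE on the log2(FPKM + 1) scale, limma adjusted p = 0.0029), so the RNA level does not check the label. Of 14 T-lineage markers, 14 reached 1 FPKM in all wild type libraries and 13 in all IK-KO libraries, the exception being CD4, at a mean of 2.77 and 0.384 FPKM.

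PAX6 had the highest level of the 4 genes. It stood at 14.2, 10.8 and 11.0 FPKM in wild type against 8.99, 9.31 and 6.92 in IK-KO. The groups do not overlap, but the lowest wild type library and the highest IK-KO library are close. The means were 12.0 ± 1.92 and 8.41 ± 1.29 FPKM (SD, n = 3 each), so that IK-KO had 70.2% of the wild type level. The difference was -0.46 ± 0.17 (SE from the spread of the 3 libraries in each group) on log2(FPKM + 1). The confidence bounds overlap between the groups: the lowest lower bound in wild type was 8.70 FPKM and the highest upper bound in IK-KO was 11.4. With the lower bounds of wild type set against the upper bounds of IK-KO, the difference turned to 0.082. ELP4, an Elongator subunit gene on the opposite strand, shares 5241 exon bases with PAX6, or 25.4% of them. ELP4 stood at 32.9, 24.2 and 26.5 FPKM in wild type against 23.2, 26.5 and 31.1 in IK-KO, with groups that overlap (-0.05, adjusted p = 0.860). It is not stated whether the quantification used strand, and how far ELP4 reads enter the PAX6 value was not tested. PAUPAR, a noncoding RNA that also shares bases with PAX6, was listed at 0 in all 6 libraries.

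IRX4 had the steepest difference among the 3 homeobox genes. Its level was 4.48, 4.02 and 4.55 FPKM in wild type and 0.224, 0.167 and 0.394 FPKM in IK-KO. Every wild type library is far above every IK-KO library. The means were 4.35 ± 0.287 and 0.261 ± 0.118 FPKM, or 6.003% of the wild type level in IK-KO, and the difference was -2.09 ± 0.09 on log2(FPKM + 1). The lowest lower bound in wild type was 3.29 FPKM, well above the highest upper bound in IK-KO, 0.715 FPKM. The lower bound reached 0 in IK-KO replicates 1 and 2, so the low level there cannot be told from 0. IRX4-AS1, on the opposite strand, shares no exon base with IRX4 and was listed at 0 in all 6 libraries.

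HOXD13 was lower in IK-KO, with a lower bound above 0 in every library. It stood at 4.69, 6.07 and 5.59 FPKM in wild type against 1.81, 1.30 and 2.02 in IK-KO. Again no library of one group reached the range of the other. The means were 5.45 ± 0.70 and 1.71 ± 0.370 FPKM, or 31.4% of wild type, with a difference of -1.25 ± 0.15. The bounds of the groups are apart as well, with a lowest lower bound of 4.05 FPKM in wild type and a highest upper bound of 2.42 FPKM in IK-KO. No other annotated gene overlaps HOXD13.

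HOTAIRM1 was the lowest of the 4 in wild type and was not detected in IK-KO. Its level was 1.33, 1.70 and 2.18 FPKM in wild type, a mean of 1.74 ± 0.422, and it was listed at 0 in all 3 IK-KO libraries. The wild type bounds are wide, from 0.284 to 2.38 FPKM in replicate 1, 0.577 to 2.83 in replicate 2 and 0.814 to 3.54 in replicate 3. No fold is given against a group at 0. In IK-KO both bounds are 0 too, so the tables set no upper limit on what could have been missed. HOXA2, 89 bases away, was listed at 0 in all 6 libraries. The 5 rows of short RNAs that overlap HOTAIRM1 on its own strand were at 0 throughout.

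**Figure D1:**
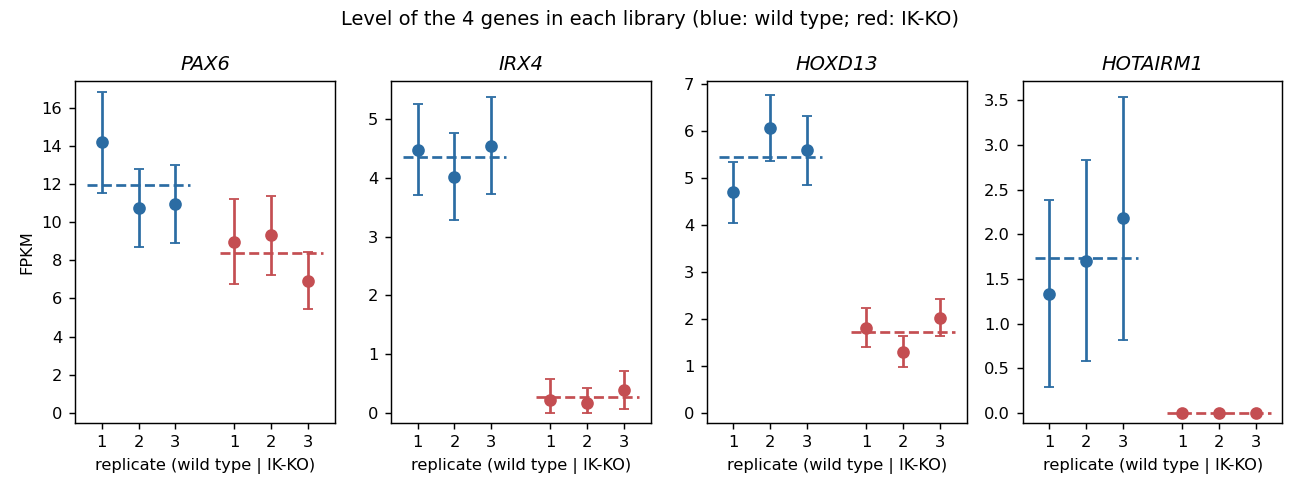
FPKM of PAX6, IRX4, HOXD13 and HOTAIRM1 in each library, with wild type in blue and IK-KO in red. Points are the listed values, bars the listed confidence bounds and dashed lines the group means. The panels have separate linear axes from 0. Bars of the 2 groups overlap for PAX6 and stay apart for IRX4 and HOXD13. HOTAIRM1 lies on 0 in IK-KO with bounds of 0, so its bars have no width there to overlap with.

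In all 4 genes the groups do not overlap and the IK-KO values are the lower ones, which was known when the genes were chosen. Among the 12652 genes tested, with a mean of at least 1 FPKM over the 6 libraries, 18.1% had groups that do not overlap with lower values in IK-KO, and 19.9% were called at an adjusted p under 0.05 in either direction, 9.75% as lower and 10.1% as higher in IK-KO. PAX6, IRX4 and HOXD13 passed this filter on low values, IRX4 through its wild type level alone, and HOTAIRM1 did not pass. No test is given for any of the 4.

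The order of mean levels, as listed, was the same in both groups: PAX6, then HOXD13, then IRX4, then HOTAIRM1. In IK-KO the order of IRX4 and HOTAIRM1 is not settled. HOTAIRM1 was listed at 0 there, and the lower bound of IRX4 was 0 in replicates 1 and 2. In wild type the middle pair is close. In replicate 1 HOXD13 stood at 4.69 and IRX4 at 4.48 FPKM, and their bounds overlap, from 4.05 to 5.33 and from 3.70 to 5.26 FPKM. PAX6 lay above 50.6% of the tested genes in wild type, near the median gene, and above 41.6% in IK-KO. HOXD13 moved from above 30.9% to above 11.0%, and IRX4 from above 26.4% to above 0.648%. The tested genes were kept for their mean over all libraries, and IRX4 entered through its wild type level alone. Its low place among them in IK-KO therefore follows in part from the filter. Among 226 homeobox genes ranked by mean FPKM, PAX6 went from place 16 to 20, HOXD13 from 24 to 38 and IRX4 from 28 to 63.

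The pattern over libraries was most alike among IRX4, HOXD13 and HOTAIRM1. Over the 6 libraries, on log2(FPKM + 1), Pearson r was 0.977 between IRX4 and HOXD13, 0.982 between IRX4 and HOTAIRM1 and 0.974 between HOXD13 and HOTAIRM1. With PAX6 it was 0.783 for IRX4, 0.669 for HOXD13 and 0.735 for HOTAIRM1. These values are descriptions over libraries that share their group, and a difference between groups alone makes r high. Within wild type, PAX6 was highest in replicate 1, the library in which HOXD13 and HOTAIRM1 were lowest.

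The genes whose pattern is nearest to each of the 4, by Pearson r over the same 6 libraries, were drawn from all tested genes. For PAX6 they were TANGO6 (r = 0.998), RHPN1 (0.997) and GTF3C4 (0.992). TANGO6 stood at 4.44, 3.87 and 3.87 FPKM in wild type against 3.49, 3.63 and 3.12 in IK-KO, which follows the high value in wild type replicate 1 and the low one in IK-KO replicate 3 of PAX6. For IRX4 they were NFATC2 (0.999), a transcription factor of T-cell activation, the inflammatory protease gene CASP1 (0.997) and FSD1 (0.997). NFATC2 stood at 4.27, 4.39 and 4.38 FPKM in wild type against 0.717, 0.667 and 0.896 in IK-KO. For HOXD13 they were CD37 (0.996), a tetraspanin gene of leukocytes, the DNA repair helicase gene SMARCAL1 (0.995) and NFS1 (0.995), whose product makes iron-sulfur clusters. CD37 stood at 1.64, 1.81 and 1.77 FPKM in wild type against 0.485, 0.317 and 0.628 in IK-KO. For HOTAIRM1 they were SIT1 (0.998), an adaptor of T-cell receptor signaling, the mitochondrial ribosomal RNA MT-RNR1 (0.997) and WIPF1 (0.996), an actin regulator. SIT1 stood at 14.2, 16.6 and 19.2 FPKM in wild type against 3.63, 3.55 and 3.28 in IK-KO. An r above 0.95 was reached by 54 genes for PAX6, 393 for HOXD13, 427 for HOTAIRM1 and 567 for IRX4, so such likeness is common where the groups are far apart.

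The other HOX genes were mostly silent around HOXD13. Of the 38, 19 were listed at 0 in all 6 libraries and 4 reached 1 FPKM in any. HOXB3, HOXB4 and HOXC4 were tested. HOXB4, known for the self-renewal of blood stem cells, stood at 4.33, 4.68 and 3.89 FPKM in wild type against 3.69, 5.01 and 4.41 in IK-KO, with groups that overlap (0.01 ± 0.13 SE, adjusted p = 0.955). HOXB3 beside it had means of 2.47 and 2.33 FPKM (adjusted p = 0.850). HOXC4 stood at 3.78, 2.24 and 3.18 FPKM in wild type against 1.03, 1.64 and 0.932 in IK-KO, and it fell by 0.88 on log2(FPKM + 1) (adjusted p = 0.0233). The HOXC4 call is lost without wild type replicate 1 (adjusted p = 0.0730), wild type replicate 3 (0.0718) or either of IK-KO replicates 1 (0.0711) and 3 (0.0724), with a replicate block (0.0721) and with no filter on low values (0.0840).

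Among the protein-coding genes of the HOXD cluster HOXD13 stood alone in level. The noncoding HAGLROS of that cluster, given below, was also lower in IK-KO. The 8 other HOXD genes summed to a mean of 0.411 ± 0.0785 FPKM in wild type and 0.762 ± 0.0597 in IK-KO, and none of them reached 1 FPKM in any library. HOXD12, 3851 bases from HOXD13, stood at 0.278, 0.321 and 0.498 FPKM in wild type against 0.693, 0.560 and 0.503 in IK-KO, the opposite order of groups from HOXD13. The sums were 7.78 ± 1.08 and 7.27 ± 0.620 FPKM for the HOXB cluster and 3.08 ± 0.780 and 1.20 ± 0.386 FPKM for the HOXC cluster. Over all 38 HOX genes other than HOXD13, the sum was 11.5, 12.3 and 11.9 FPKM in wild type and 8.37, 9.94 and 9.49 FPKM in IK-KO. The difference of -2.64 FPKM had p = 0.1 in a two-sided exact permutation test, the smallest that 3 against 3 libraries can give. HOXD12 was named after its values were seen.

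**Figure D2:**
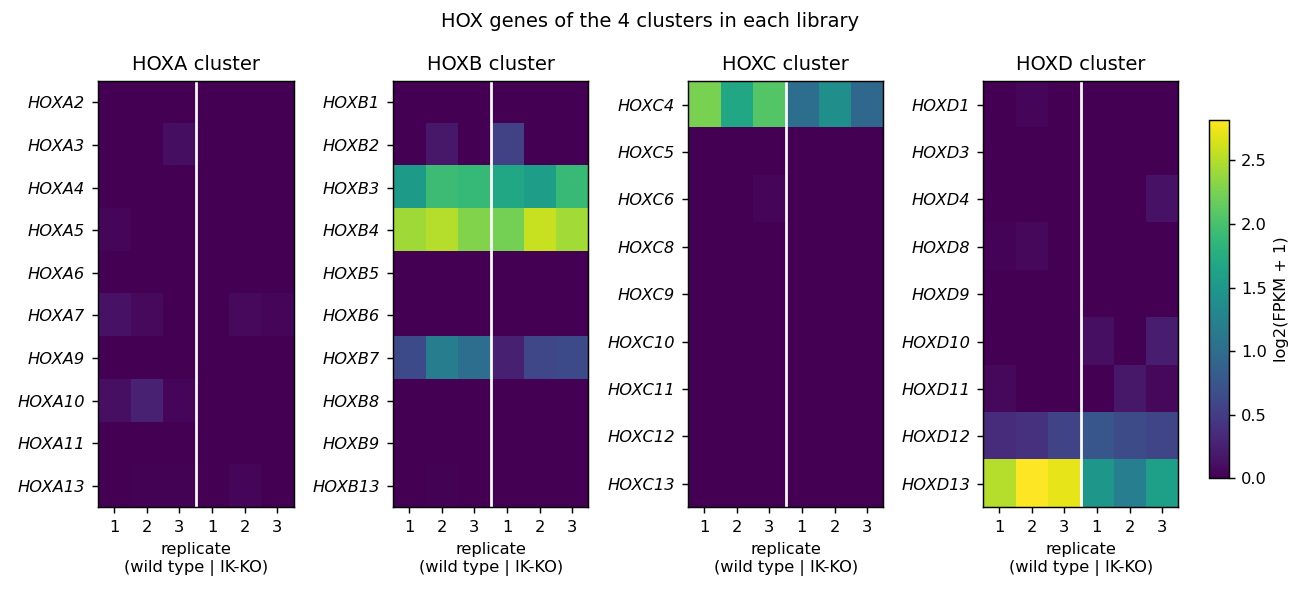
Level of HOXD13 and 37 other HOX genes in each library as log2(FPKM + 1), by cluster and in the order of their numbers, with wild type left and IK-KO right of the white line. Bright cells are high. HOXD13, HOXB3, HOXB4 and HOXC4 are the bright rows, and most other rows are at or near 0 in both groups.

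HAGLROS was the 1 tested gene among the 17 other noncoding genes of the HOX clusters, of which 9 were listed at 0 in all libraries. It is a noncoding RNA 81.8 kb from HOXD13, toward the other end of the HOXD cluster. HAGLROS stood at 4.58, 3.49 and 3.27 FPKM in wild type against 1.09, 2.06 and 1.83 in IK-KO. It fell by 0.85 on log2(FPKM + 1) (SE 0.19, adjusted p = 0.0205), a call that is lost without wild type replicate 1 (adjusted p = 0.0679) or replicate 2 (0.0544), with a replicate block (0.0663) and with no filter (0.0781). HOTAIR and HOTTIP, the noncoding RNAs of the HOXC and HOXA clusters known for binding chromatin regulators, were listed at 0 in all 6 libraries.

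Among the Iroquois genes, IRX4 was joined by IRX1 and IRX3. IRX1 lies 1709 kb from IRX4 in the cluster of chromosome 5. It stood at 4.17, 4.33 and 4.51 FPKM in wild type against 2.21, 1.97 and 1.46 in IK-KO, and fell by 0.90 (SE 0.14, adjusted p = 0.0050). IRX2, which lies between them and 859 kb from IRX4, was listed at 0 in all libraries. IRX3, in the other Iroquois cluster on chromosome 16, was the most abundant of the family, at 32.8, 33.3 and 33.9 FPKM in wild type and 20.0, 24.9 and 18.2 in IK-KO, and fell by 0.65 (SE 0.11, adjusted p = 0.0072). IRX5 of that cluster stood at 10.8, 12.1 and 11.4 FPKM in wild type against 10.5, 12.9 and 8.41 in IK-KO, and its groups overlap (-0.12 ± 0.14 SE, adjusted p = 0.604). IRX6 was listed at 0. Of the 3 tested Iroquois genes besides IRX4, 2 were thus called lower, beside 9.75% of all tested genes.

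Among the PAX genes, PAX6 had the highest level. Of the 8 others, 5 were listed at 0 in all libraries. PAX9, known for the thymus and the teeth, was the 1 that was tested, at 5.29, 4.22 and 4.56 FPKM in wild type and 4.73, 3.73 and 4.58 in IK-KO (-0.09, adjusted p = 0.670). Its groups overlap, unlike those of PAX6.

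Of the 223 homeobox genes other than PAX6, IRX4 and HOXD13, 101 were listed at 0 in every library and 49 were tested. Of these, 7 were higher and 6 lower in IK-KO, together 26.5% beside 19.9% over all tested genes, and 36 did not pass. Their median change was 0.01, as against 0.02 over all genes. Calls thus went both ways among the other homeobox genes. HHEX, a factor of early blood and known in T-ALL as a target of LMO2, came nearest to IRX4 in size: it stood at 4.97, 4.74 and 4.88 FPKM in wild type against 0.498, 0.276 and 0.945 in IK-KO and fell by 1.92 (SE 0.18, adjusted p = 0.0006). GSC, of the paired class like PAX6, had means of 2.85 and 1.42 FPKM (adjusted p = 0.0126). POU3F2, known for neurons, had means of 2.83 and 1.29 FPKM (adjusted p = 0.0076).

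Among the homeobox genes that rose was SIX6, which like PAX6 is known for the eye. It stood at 13.3, 12.5 and 13.3 FPKM in wild type against 20.9, 19.3 and 21.5 in IK-KO, a rise of 0.62 (SE 0.07, adjusted p = 0.0016), in the opposite direction to PAX6. SIX5 rose from a mean of 2.45 to 5.54 FPKM (adjusted p = 0.0066). TGIF1, a repressor of the TALE class to which IRX4 belongs, rose from 11.5 to 26.7 FPKM (adjusted p = 0.0049). PBX2, a partner of HOX proteins on DNA, rose from 43.5 to 69.7 FPKM (adjusted p = 0.0010). SATB1, a chromatin organizer of thymocytes, rose from 62.3 to 98.6 FPKM (adjusted p = 0.0006).

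**Figure D3:**
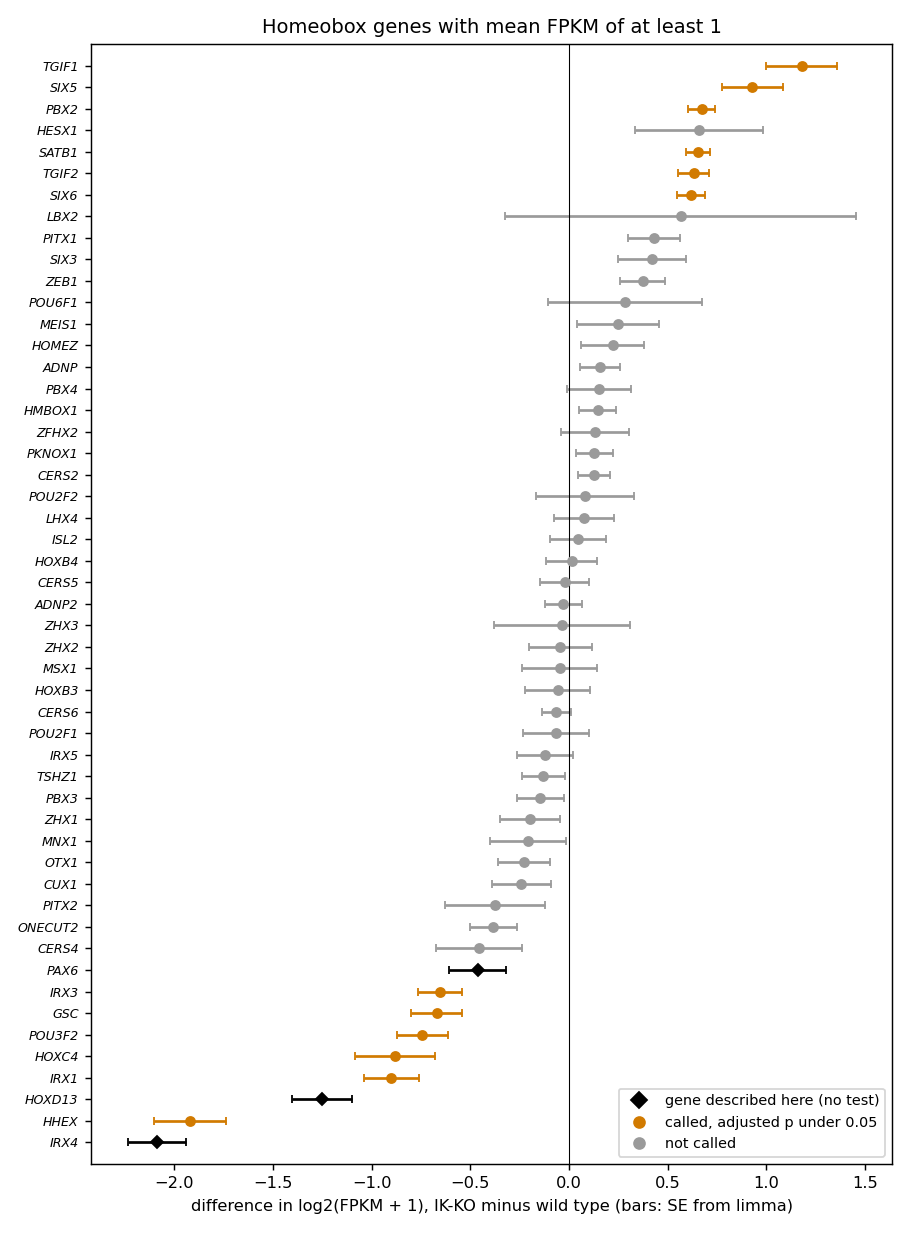
Difference of group means in log2(FPKM + 1), IK-KO minus wild type, for 51 homeobox genes with a mean of at least 1 FPKM, with the standard error from limma as bars. Orange genes were called, grey genes were not, and black diamonds are PAX6, IRX4 and HOXD13, which carry no test. IRX4 (-2.09) is at the bottom next to HHEX (-1.92), HOXD13 (-1.25) is just above HHEX, and TGIF1 (1.18) is at the top.

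The homeobox genes known as T-ALL oncogenes, with the cofactors of HOX proteins, were 14 genes. Of these, 5 were tested, PBX2 was higher and HHEX lower, together 40.0% beside 19.9% over all tested genes. TLX3 was listed at 0 in all libraries and TLX1 reached at most 0.187 FPKM. Of 41 genes of Polycomb and trithorax complexes, all tested, 8 were higher and 4 lower in IK-KO, together 29.3% beside 19.9% over all tested genes, with a median change of 0.04. The 3 largest changes were those of PCGF2, which rose from a mean of 0.472 to 2.63 FPKM (adjusted p = 0.0041), PHF19, which fell from 59.0 to 31.4 FPKM (adjusted p = 0.0001), and CBX7, which fell from 4.38 to 2.26 FPKM (adjusted p = 0.0078). All 3 encode parts or partners of the complexes that keep developmental genes silent.

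Tested genes within 500 kb of the 4 were called about as often as all tested genes. Within 500 kb lie 128 listed genes, of which 15 were tested, and 3 were called (1 higher, 2 lower) beside 19.9% of all tested genes. The median change was 0.01. Near PAX6, ELP4 on one side was not called and RCN1 on the other, 273 kb away, rose from 55.9, 55.6 and 50.3 FPKM to 77.3, 79.8 and 77.7 (0.53 ± 0.06 SE, adjusted p = 0.0012), opposite to PAX6. Near IRX4, the nearest tested gene was NDUFS6, a subunit of mitochondrial complex I, at means of 57.9 and 60.8 FPKM (0.07, adjusted p = 0.549), and no gene on the other side was tested. LPCAT1, 353 kb from IRX4, fell from 24.8, 27.9 and 28.6 FPKM to 19.7, 19.6 and 22.4 (-0.38 ± 0.08 SE, adjusted p = 0.0196). The LPCAT1 call is lost without wild type replicate 2 (adjusted p = 0.0691) or 3 (0.0626) or IK-KO replicate 1 (0.0681) or 2 (0.0695), or with no filter (0.0548). Near HOXD13, LNPK on one side had means of 13.3 and 14.1 FPKM (0.07, adjusted p = 0.821), and on the other side HAGLROS was the nearest. Near HOTAIRM1, EIF4HP1, a pseudogene 358 kb away, had means of 2.44 and 2.32 FPKM (-0.08, adjusted p = 0.846), and no gene on the lower side was tested.

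**Figure D4:**
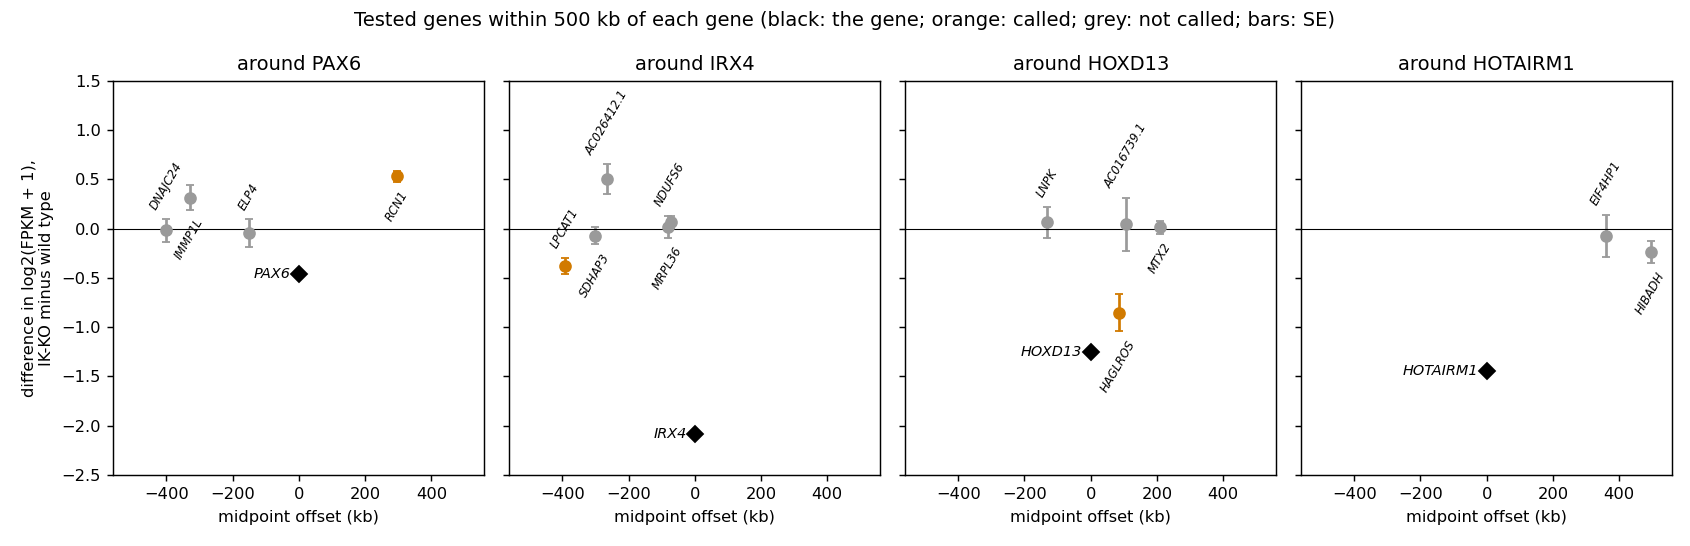
Difference in log2(FPKM + 1), IK-KO minus wild type, of the 15 tested genes within 500 kb of PAX6, IRX4, HOXD13 and HOTAIRM1, by the distance in kb between the midpoints of the genes. Bars are standard errors, orange genes were called, and the black diamond is the named gene. Most neighbours lie near 0. IRX4 lies at -2.09, HOTAIRM1 at -1.44, HOXD13 at -1.25 and PAX6 at -0.46, genes that were chosen with their difference known.

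The chromosomes of the 4 genes showed no general shift: the median change of their tested genes was 0.02 on chromosomes 2, 5 and 7 and under 0.01 in size on chromosome 11. Chromosome 6 had a median of 0.21 with 35.6% of its genes called, and chromosome 9 a median of -0.35 with 48.8% called. POU3F2 and PBX2 lie on chromosome 6. PHF19, SIT1 and GTF3C4 lie on chromosome 9. Whether the lines differ in chromosome copies was not tested.

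Few other markers of the tissues in which the 4 genes are known reached 1 FPKM. Of 11 markers of eye, forebrain and islets, SIX6 was the one at 1 FPKM or more, and 5 were listed at 0 in all libraries. The 11 summed to between 12.8 and 14.0 FPKM in wild type and between 19.9 and 21.9 in IK-KO, mostly SIX6, the opposite order of groups from PAX6. All 11 markers of the heart, in whose ventricle IRX4 is known, were listed at 0 in all 6 libraries. Of 9 limb bud markers, MSX1 and PITX1 reached 1 FPKM, 5 were at 0, and the 9 summed to between 5.02 and 7.19 FPKM in wild type and between 6.51 and 8.35 in IK-KO. Of 9 myeloid markers, where HOTAIRM1 is known, CEBPE reached 1 FPKM and 2 were at 0, with sums from 4.42 to 5.14 FPKM in wild type and from 4.42 to 4.96 in IK-KO. The 5 B-lineage markers summed to between 0.777 and 2.24 FPKM in wild type and between 0.372 and 0.881 in IK-KO. The T-lineage markers themselves moved with the groups: 6 of 14 were called higher and 5 lower, together 78.6% beside 19.9% over all tested genes. They summed to between 1966 and 2039 FPKM in wild type and between 2310 and 2538 in IK-KO. The largest changes among them were in CD2, which fell from a mean of 61.5 to 5.14 FPKM (adjusted p = 1.4e-06), CD247, which rose from 66.0 to 246 (adjusted p = 7.8e-06), and CD7, which fell from 15.8 to 4.17 (adjusted p = 0.0004). Fewer cells with a transcript and less of it per cell cannot be told apart in these bulk libraries, for the 4 genes as for the markers.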

How the data were processed

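The deposited files are 1 table per library with FPKM values that the authors scaled for transcript length and depth, each with 2 confidence bounds, in the layout Cufflinks writes. The submitters' processing notes list hg38, STAR 2.6.1c, Cufflinks 2.2.1 and HOMER 4.10 without roles, and the strand setting is not given in the sources used here. Rows of 1 gene identifier were summed (110 identifiers), and 29 identifiers not estimated in a library were left out. All 49727 identifiers shared with GENCODE lay at its GRCh38 positions. Groups came from the labels.

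The test was limma 3.58.1 (R 4.3.3) on log2(FPKM + 1) values (mean-variance trend, two-sided, Benjamini-Hochberg) over 12652 genes with a mean of at least 1 FPKM, and called at an adjusted p under 0.05. This scale understates changes of low genes. The method was tested on simulated data with independent noise and fewer changed genes, which does not show how it behaves on these libraries. No count test was run. The 4 genes, the gene lists and the neighbour window of 500 kb were chosen with earlier results of these data known. Named are the 4 genes, IKZF1, the HOX, PAX, Iroquois and HOX noncoding genes with a mean of at least 1 FPKM, at most 3 called genes of each other list by size, the nearest tested and all called neighbours, and the 3 genes most alike by r. Any other gene was named after its values were seen. Alternatives were other pseudocounts, filters, scalings and windows, the listed bounds, a replicate block, and each library left out. Some genes of these lists are counted but not reported here by name.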

Additional observations from a re-analysis of the deposited data

How the results depend on the processing

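The number of all genes called, 2515, ran from 1692 to 2004 with each library left out, and the count of other homeobox genes called, 13, from 12 to 14. Under the other settings the number of all genes called ran from 1805 to 2803, the highest with upper quartile scaling. The count of other homeobox genes ran from 12 to 18, the highest with no filter, where more genes are tested. The IRX4 difference was -2.09, with -2.16 to -2.03 when a library was left out, -3.67 at a pseudocount of 0.1, -2.68 at 0.5, and -1.54 with the lower bounds of wild type set against the upper bounds of IK-KO. That of HOXD13 was -1.25, with -1.34 to -1.14 when a library was left out, -1.63 at a pseudocount of 0.1 and -0.90 by the bounds. That of HOTAIRM1 was -1.44, with -1.55 to -1.33, -4.17 at a pseudocount of 0.1, -2.15 at 0.5 and -0.63 by the bounds, and it was not computed under quantile normalization. That of PAX6 was -0.46, with -0.53 to -0.34, and turned to 0.082 by the bounds. These shifts follow from the pseudocount or the bounds themselves. For HOTAIRM1 all IK-KO bounds are 0 and the wild type lower bounds lie above 0, so the value by the bounds could only be negative. The HOX sum differed by -2.64 FPKM, with -2.98 to -2.19 when a library was left out, where the smallest possible p is 0.2. Neighbours called were 3, between 1 and 3 with a library left out (1 without wild type replicate 2), and 10 within 1 Mb. The number of genes tested within 1 Mb is not given, so that count cannot be set beside the share over all tested genes. Same-numbered libraries deviated together with r of 0.067, 0.025 and 0.005. These low values gave no sign of pairing, but values for differently numbered libraries were not set beside them. With the replicate block 1805 genes, 12 other homeobox genes and 2 neighbours were called. Depth is not known, and the listed lower bound of IRX4 was 0 in IK-KO replicates 1 and 2, so its level there cannot be told from 0.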

Other observations

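Some homeobox genes below the filter, picked after their values were seen, also had groups that do not overlap. DLX1, known for the forebrain, stood at 0.235, 0.204 and 0.106 FPKM in wild type against 1.22, 1.09 and 1.29 in IK-KO, the opposite order from PAX6. DLX2 beside it stood at 0.0830, 0.178 and 0.113 FPKM in wild type against 0.480, 0.590 and 0.593 in IK-KO. TLX2, a relative of the T-ALL oncogenes TLX1 and TLX3, stood at 1.34, 1.75 and 1.74 FPKM in wild type against 0.266, 0.454 and 0.0440 in IK-KO. MSX2, known for limb and skull, stood at 0.307, 0.426 and 0.641 FPKM in wild type against 0, 0.0497 and 0.0916 in IK-KO. None of these genes entered the main test, and no p-value is given for them.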
